A study of Homo sapiens with 2 samples.

Results

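The protein part of the cytosolic ribosome was followed through 64 ribosomal protein genes in HCT116, an epithelial cell line from a human colorectal carcinoma. Members were the genes with a standard symbol of the large (RPL, RPLP) or small (RPS, RPSA) subunit, each represented by its brightest probe set that carries 1 gene symbol. They were 64 of the 10437 genes measured, 41 of the large and 23 of the small subunit. One culture was infected with a lentivirus that carries a control shRNA without a named target (shNC). The other was infected with a lentivirus that carries shRNA 4# against RAP1 (shRAP1), both at a multiplicity of infection of 20 for 72 h. Each culture gave 1 array, from total RNA amplified from the 3′ end into biotin-labelled cRNA, and a single shRNA construct was used with no uninfected culture described. The study asked how RAP1 affects colorectal cancer cells. With 1 array per group no difference has a replicate check and no test was possible, so all values describe these arrays.

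Each ribosomal protein is present once per ribosome, except for the stalk proteins, and the proteins are made at matched rates by a large set of short, abundant mRNAs. Most of these mRNAs start with a C followed by an unbroken tract of pyrimidines, the 5′ terminal oligopyrimidine (TOP) motif. Through this tract the LARP1 protein and the mTORC1 kinase control how much of each mRNA is translated, so ribosomal protein output in proliferating cells is set to a large degree after transcription. Signals on an array report mRNA level and not translation.

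The start region is shown for members near both ends of the range of differences, for stalk and small subunit members, and for RPL7A, which has the longest run of C and T, since this region holds the TOP motif where a gene has one and the symbol rule did not use it. RPL7 is not in the sequence table. The sequences are from RefSeq, build GRCh38.p14, read along the coding strand from 30 bases before to 20 bases after the annotated start, and the longest unbroken run of C and T between 10 bases before and 20 after the start is in capitals. A run of this kind is counted by its letters alone and need not be a TOP tract, which begins with a C at the first base of the mRNA. Where a gene has several annotated starts, the start with the longest run is shown.
RPL27A, chr11:8682762-8682811, plus strand: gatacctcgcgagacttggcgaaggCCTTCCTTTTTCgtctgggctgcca
RPL35, chr9:124861938-124861987, minus strand: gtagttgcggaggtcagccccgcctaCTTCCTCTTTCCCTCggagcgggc
RPLP1, chr15:69452788-69452837, plus strand: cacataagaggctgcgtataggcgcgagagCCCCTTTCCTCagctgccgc
RPS18, chr6:33272045-33272094, plus strand: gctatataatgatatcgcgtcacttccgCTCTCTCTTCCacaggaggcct
RPL7A, chr9:133348188-133348237, plus strand: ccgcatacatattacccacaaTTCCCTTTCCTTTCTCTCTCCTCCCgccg
RPL3, chr22:39319604-39319653, minus strand: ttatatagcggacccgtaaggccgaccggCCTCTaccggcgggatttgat
RPL13, chr16:89560652-89560701, plus strand: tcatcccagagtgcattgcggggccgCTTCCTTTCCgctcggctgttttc
RPS25, chr11:119018324-119018373, minus strand: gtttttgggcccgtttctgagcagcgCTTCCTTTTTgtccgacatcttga
RPL18, chr19:48619159-48619208, minus strand: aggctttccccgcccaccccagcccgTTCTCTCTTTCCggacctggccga
The table held 54 of the 64 members, with 65 starts. A run of 8 or more C and T in this window was found at 47 of the 65 member starts (72.3%), against 12.7% of the 35116 starts of all genes. The median length of the longest run was 11 bases at member starts and 4 bases over all starts. Counted by gene, 46 of 54 members (85.2%) and 15.4% of all genes had such a run at 1 start or more. Among the genes shown, RPL7A had a run of 25 bases and RPL3 a run of 5. The 46 members with the run had a median difference of −0.0053 on the log2 scale, shRAP1 minus shNC, and the 8 without it 0.011, so both groups lay close to 0.

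Other short motifs were searched over the whole 300 bases from 250 before to 50 after the start, on both strands. CTTCCGG or its complement CCGGAAG, letters bound by factors of the ETS family, was present at 38.5% of member starts and 10.3% of all starts. AAGATGG or CCATCTT, part of the site of the factor YY1, was present at 12.3% and 5.84%. TATAAA or TTTATA was present at 6.15% and 11.5%. CTTCCGG can share its first bases with a pyrimidine run. A match is a description of the letters only.

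The knockdown was checked first. RAP1 is an alias of TERF2IP, which encodes a telomere-bound shelterin protein, and is also the family name of the GTPases encoded by RAP1A and RAP1B. TERF2IP fell from 1311 in shNC to 624 in shRAP1 on its single probe set, 47.6% of the control. The brightest probe sets of RAP1A and RAP1B stood at 88.0% and 93.3% of the control. All 6 epithelial markers looked for (EPCAM, KRT8, KRT18, KRT19, CDH1 and CDX2) were past the floor on these arrays, with a summed signal of 30945 in shNC and 31717 in shRAP1. None of the 4 leukocyte markers with a probe set passed the floor, and of the 5 fibroblast and endothelial markers VWF alone did, at 129 and 125. Summed signals were 68.0 and 67.8 for the leukocyte markers and 248 and 252 for the fibroblast and endothelial markers.

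Ribosomal protein signals differed little between the arrays. The median difference of the 64 genes, shRAP1 minus shNC on the log2 scale, was 0.00018 with an SD between genes of 0.046. There were 32 members above 0, 30 below 0 and 2 with the same value on both arrays. Over all 10437 genes past the floor (a signal of 78.0 or more on either array) the median was 0.010 and the SD 0.16. A difference of 0.1 or more in size was counted, because no member differed by 1.2-fold, as 8.55% of all genes did in either direction, or by 2-fold (0.0192% higher and 0.0192% lower). By that size 0 of 64 members were higher, where 26.6% of all genes were, and 2 of 64 were lower, where 21.1% of all genes were. With the floor at the 75th percentile, which removes RPL27A, the count lower was 1, and with all probe sets of a gene combined by their median 1 member was higher and 4 lower. Shares over all genes were not counted under these other settings. At the smaller size of 0.05, 6 members were higher and 3 lower, against 38.8% and 32.3% of all genes. At 0.1, the other 62 members lay within 0.1 of no difference, as did 5457 of the 10437 genes. The summed signal of the 64 probe sets in shRAP1 was 100.2% of that in shNC. These small differences were read at the top of a scale that RMA sets to one distribution for all arrays: the highest value was 25726 on both arrays, 14.7 on the log2 scale, and the members' median of mean log2 signal was 13.9. The part of this scaling in the size of the differences was not tested.

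**Figure D1:**
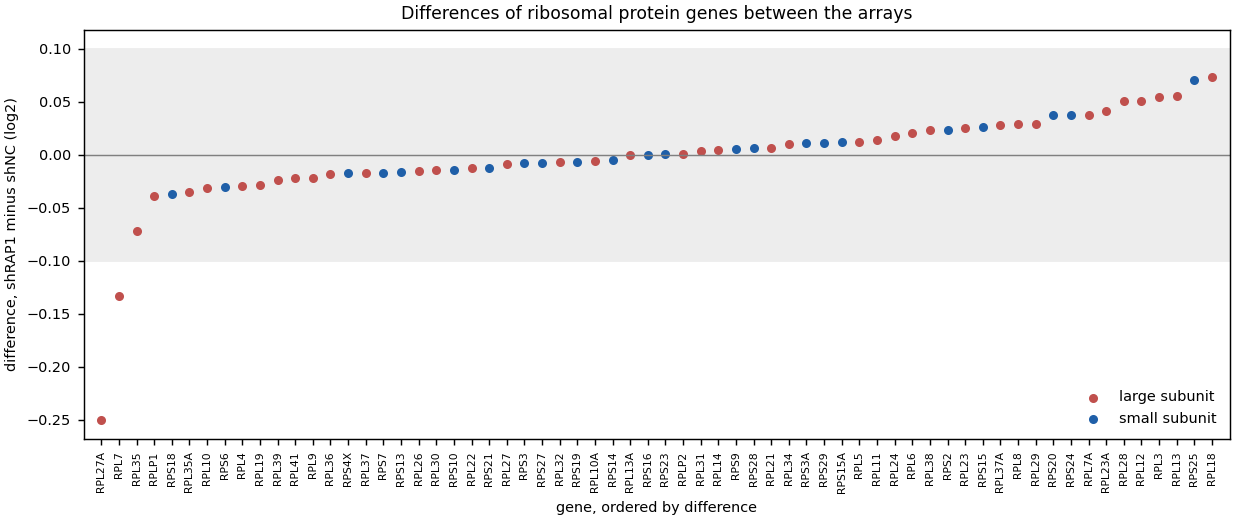
Difference of each of the 64 ribosomal protein genes, shRAP1 minus shNC on the log2 scale (vertical axis), in order of the difference (horizontal axis), with 1 point per gene from 1 array per group and no error bars. Red points are large and blue points small subunit genes, and the grey band marks differences under 0.1 in size. RPL27A at −0.25 and RPL7 at −0.13 lie outside the band, and RPL18 at 0.074 is the highest.

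The 2 lower members were both of the large subunit. RPL7, which encodes a protein of the universally conserved ribosomal core, had a signal of 8516 in shNC and 7764 in shRAP1 on its 1 probe set. This was 91.2% of the control, a difference of −0.13. RPL27A, another protein of the conserved core, had 93.9 and 79.0 on its 1 single-symbol probe set, a difference of −0.25. These signals lie just above the floor, far from the other members, and the RPL27A value is that of a dim probe set. Both probe sets that list RPL27A together with the small nucleolar RNA gene SNORA3A were as dim, with 89.5 and 83.3 on the brighter and 62.3 and 54.3 on the other. All 3 were lower in shRAP1, at −0.25, −0.10 and −0.20, the last from signals below the floor of 78.0 on both arrays.

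Genes of the large subunit spanned the range of differences. RPL18, a large subunit protein known from Diamond-Blackfan anaemia, had 11426 in shNC and 12024 in shRAP1, a difference of 0.074, and its other probe set was at 0.056. RPL13 had 9108 and 9468, a difference of 0.056. A brighter probe set that lists RPL13 together with the pseudogene RPL13P12 had 20193 and 20298, a difference of 0.0074. RPL3, a core protein that reaches towards the peptidyl transferase centre, had 15847 and 16460, a difference of 0.055, and its 3 probe sets lay between 0.041 and 0.095. RPL12, at the base of the stalk, had 18559 and 19225 (0.051), with its other probe set at 0.068. RPL28, a protein that bacteria lack, had 16738 and 17335 (0.051), and its 6 probe sets past the floor were all above 0, from 0.011 to 0.068. RPL3, RPL12, RPL18 and RPL28 were thus above 0 on every probe set past the floor, by amounts under 0.1 in size. RPL7A had 15309 and 15712, a difference of 0.038.

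Of 7 measured proteins of the peptide exit tunnel and its rim, 2 were above 0 and 5 below, with a median of −0.024. RPL35, beside the tunnel exit, had 12347 in shNC and 11750 in shRAP1, a difference of −0.072, and its other probe set was at −0.035. RPL23A, the docking protein for factors that receive the nascent chain, had 18411 and 18949, a difference of 0.042. RPL4, which lines the tunnel, was at −0.030 on its brightest probe set and reached 0.084 on another. RPL39, also in the tunnel wall, was at −0.024 and 0.070 on its 2 probe sets. The tunnel median was 0.023, of the opposite sign, when all probe sets of a gene were combined by their median.

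The stalk recruits the elongation factors and is built from RPLP0, RPLP1 and RPLP2. RPLP1 had 19783 in shNC and 19251 in shRAP1, a difference of −0.039, and its 4 probe sets lay between −0.041 and −0.026. RPLP2 had 16164 and 16173, a difference of 0.00079, while a dimmer one past the floor reached 0.12. RPL5 and RPL11 bind 5S rRNA and, when outside the ribosome, the p53 regulator MDM2. RPL5 had 11548 and 11647, and RPL11 had 17397 and 17565, differences of 0.012 and 0.014. The second probe set of RPL11 was at −0.046.

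The 23 small subunit genes lay in a narrower range, from −0.037 to 0.071, with an SD between genes of 0.024. RPS25, a head protein needed for initiation at several internal ribosome entry sites, had 14596 in shNC and 15329 in shRAP1, a difference of 0.071. Its other probe sets were at −0.022, 0.054 and 0.12. RPS18 was the lowest, with 15323 and 14940, a difference of −0.037, and 0.058 on its other probe set. RPS6, the substrate of the S6 kinases, had 17357 and 16997 (−0.030). RPS2, at the mRNA entry channel, had 22465 and 22829 (0.023) where the highest value on either array was 25726. Its other single-symbol probe set, with 364 and 389, was at 0.097. A probe set that lists RPS2 with the pseudogenes RPS2P46 and RPS2P5 had 2299 in shNC and 3035 in shRAP1, a difference of 0.40. RPS16, like RPL13A of the large subunit, had the same value on both arrays, 16584 for RPS16 and 18900 for RPL13A. Of 10 measured head proteins, 5 were above 0, 4 below and 1 at 0, with a median of 0.0030, which was −0.051 when _x_at and _s_at probe sets were left out.

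Large and small subunit genes did not separate. The medians were 0.00079 for the large and 0 for the small subunit, so large minus small was 0.00079. Of the large subunit genes 21 were above 0 and 19 below, and of the small subunit genes 11 were above and 11 below. The wider SD of the large subunit, 0.054, includes RPL27A and RPL7. Over the settings tried, large minus small ran from −0.0079 to 0.025. The 28 members with a bacterial and archaeal counterpart had a median of 0.00018, and the other 36 had −0.0030. The 15 measured genes known from Diamond-Blackfan anaemia, a red cell aplasia caused by loss of a ribosomal protein copy, had a median of −0.0067, with 7 above 0 and 8 below.

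**Figure D2:**
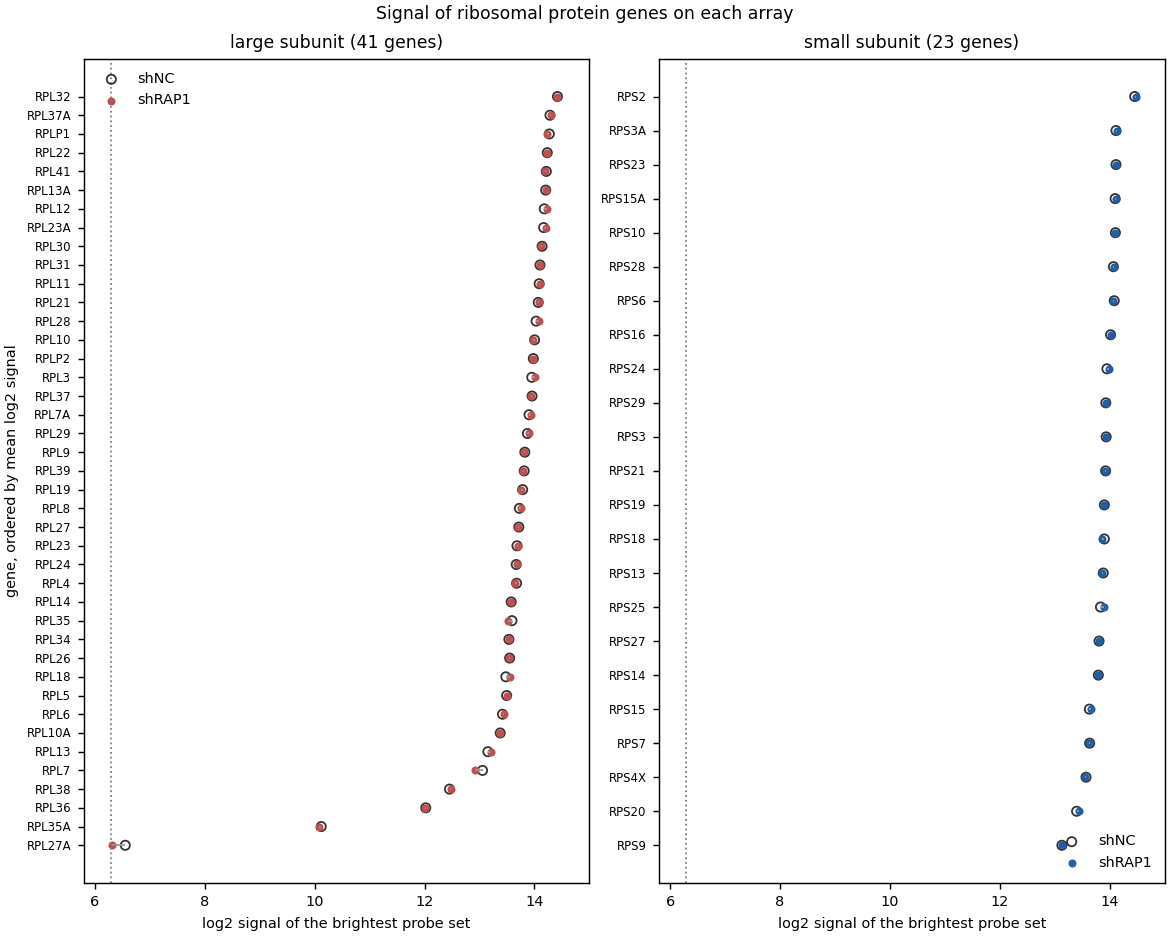
Log2 signal (horizontal axis) of the brightest single-symbol probe set of each gene (vertical axis) in shNC (open circles) and shRAP1 (filled circles), 1 array each, for the 41 large subunit genes on the left and the 23 small subunit genes on the right. The dotted line is the floor, and in most rows the circles nearly coincide, while RPL27A sits next to the floor.

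Members took up the bright end of the array. Their median of mean log2 signal was 13.9, the highest value on either array was 14.7, and 57 of the 100 brightest genes were members. Signal depends on the probes as well as on the transcript, so this order is not one of mRNA abundance. The brightest members were RPS2, RPL32 and RPL37A. The dimmest were RPL27A, RPL35A (1113 in shNC and 1086 in shRAP1, −0.036) and RPL36 (4160 and 4109, −0.018). A probe set that lists RPL35A together with ZNF391 was far brighter, with 17247 and 17343 and a difference of 0.0080, so the single-symbol rule chose a dim probe set for RPL35A.

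**Figure D3:**
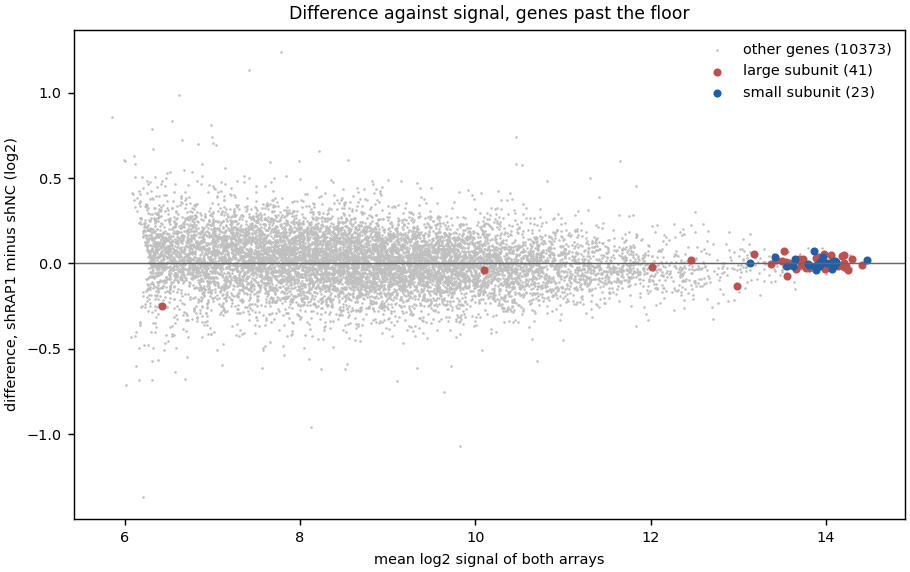
Difference, shRAP1 minus shNC on the log2 scale (vertical axis), against the mean log2 signal of both arrays (horizontal axis) for the 10437 genes past the floor. Grey points are other genes, red and blue points are large and small subunit genes, and most members form a tight cluster at the right end near 0.

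The spread of all genes narrowed with signal, so members were set beside other bright genes. In the brightest 10% of genes, which held 62 of the 64 members, the other 982 were higher by 0.1 or more in 12.2% and lower in 21.2%, with a median of −0.026. Of the 140 genes with a mean log2 signal of 13 or more, 59 were members, with an SD of 0.029 and 0 past 0.1 in size. The other 81 had an SD of 0.067, and 3 of them were higher and 9 lower by 0.1 or more. Members also sat towards the top of these 140 genes, as 38 of the 50 brightest genes were members. Brightness was therefore not matched within this group, and its part in the narrower SD of members was not tested. RPL7, at a mean log2 signal of 12.99 and a difference of −0.13, lies just under that bound. From the level of RPL7 upward, a bound chosen with the values known, 60 members had an SD of 0.034 and 1 past 0.1 in size, and 82 other genes had an SD of 0.067 and 12 past it.

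Many members have several probe sets, which gives a view within the gene. Of 171 single-symbol probe sets, 156 passed the floor, 64 of them the brightest of their gene and 92 others. The SD of the differences was 0.046 for the brightest and 0.081 for the others. Of those others 8 were higher and 10 lower by 0.1 or more, with a median of 0.012. The 103 probe sets with a mean log2 signal of 13 or more all lay between −0.072 and 0.074, and the probe set of RPL7 (−0.13) lies just under that bound. Of the 35 under 10, 16 lay past 0.1 in size, between −0.29 and 0.20. Shares over all probe sets of the arrays were not counted for these comparisons. By brightest probe set, 26.6% of all genes were higher and 21.1% lower by 0.1 or more.

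**Figure D4:**
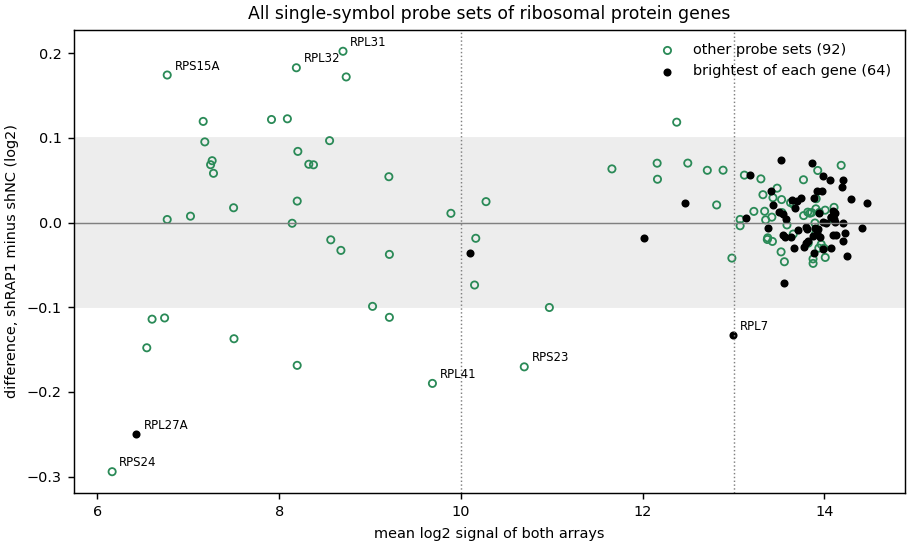
Difference, shRAP1 minus shNC on the log2 scale (vertical axis), against mean log2 signal (horizontal axis) for the 156 single-symbol probe sets of members past the floor. Filled points are the brightest of each gene, open circles the 92 others, the grey band marks differences under 0.1 in size and dotted lines mark 10 and 13. Dim probe sets scatter from −0.29 for RPS24 to 0.20 for RPL31, while all those at 13 or more stay in the band. RPL7, just under 13, lies outside it at −0.13.

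Among the 47 members with at least 2 such probe sets, 22 had differences of both signs. The share over all genes with several probe sets was not counted, so this is not read as a trait of members. RPS24, a small subunit protein with known splice forms, had 15828 in shNC and 16244 in shRAP1 (0.037) on its brightest probe set and 79.3 and 64.6 (−0.29) on its dimmest. RPL37A ran from −0.15 to 0.12 over 5 probe sets. RPL32 was at −0.0070 on its brightest probe set and at 0.17 and 0.18 on a pair of dim ones. RPS23, at the decoding site, was at 0.00036 and 0.012 on bright probe sets and at −0.17 on one with 1761 and 1565. RPS28 ran from −0.14 to 0.033 over 6 probe sets, the 4 bright ones all above 0.

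Members also differ in how specific their probe sets are. Names ending in _x_at or _s_at mark probes that can match other transcripts, and ribosomal protein genes have many processed pseudogenes. Of the 64 brightest probe sets, 36 ended in _x_at and 20 in _s_at. The median difference was 0.012 for the former, with 24 of 36 above 0, and −0.012 for the latter, with 4 of 20 above 0. Without such probe sets 30 members remained measured, 1 higher and 6 lower by 0.1 or more, where 26.8% of the 8967 genes measured that way were higher and 22.9% lower. The count lower is thus near the share over all genes, and the count higher is below it. This setting also replaced bright probe sets by dim ones, as for RPS24 (79.3 and 64.6, −0.29) and RPS20 (101 and 93.3, −0.11). Members that kept a bright probe set, such as RPS13 (−0.016) and RPL18 (0.074), lay within 0.1. The part of brightness in the count lower was not tested.

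For another 4 genes under the symbol rule, every probe set has an annotation with several entries, so they were not among the 64. RPS12 had 14190 in shNC and 14148 in shRAP1 on the brighter of its 2 probe sets, which were at −0.0042 and −0.0037. RPL17, listed with a readthrough gene, was at −0.028, 0.027 and 0.0051 on 3 probe sets. RPL36A had 10468 and 10729 (0.036). RPS26 had 8707 and 8895 (0.031) on its bright probe set and 164 and 158 (−0.052) on a dim one. The dim one lists no gene but RPS26, as a repeated entry, and was left out for that repeat. All bright probe sets of these genes thus lay near 0 too.

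Among paralogs of ribosomal proteins, RPL26L1, RPS27L, RPL36AL and RPL7L1 lay past 0.1 in size and RPL22L1 did not. Of 8 looked for, 5 passed the floor, with a median of −0.13, 1 higher and 3 lower by 0.1 or more, where 26.6% of all genes were higher and 21.1% lower. RPL26L1 had 1479 in shNC and 1230 in shRAP1 (−0.27), while RPL26 had 11985 and 11862 (−0.015). RPS27L, a target of p53, had 4874 and 4363 (−0.16), while RPS27 had 14330 and 14257 (−0.0074). RPL36AL had 2212 and 2025 (−0.13), with its other probe set at −0.11. RPL7L1, a nucleolar relative of RPL7, went the other way with 1598 and 1886 (0.24), on 6 probe sets between −0.065 and 0.24. RPL22L1 had 11767 and 11667 (−0.012), close to RPL22 with 19280 and 19113 (−0.013). On the next brightest probe set, which of the 5 only RPL36AL and RPL7L1 have, the paralog median was 0.066. The paralogs are also dimmer than most members, and the part of brightness in this contrast was not tested. FAU, whose precursor yields the small subunit protein eS30, had 13114 and 13638 (0.056).

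The shares over all genes, 26.6% higher and 21.1% lower by 0.1 or more, also stand beside the counts of the related groups that follow. Of 9 measured elongation factors, 1 was higher and 0 lower, with a median of 0.012. This median was −0.018 with all probe sets of a gene combined and 0.094 when _x_at and _s_at probe sets were left out. EEF1A2, a tissue-restricted form of the factor that delivers aminoacyl-tRNA, had 664 in shNC and 756 in shRAP1 (0.19). EEF2, the translocase, had 15400 and 16402 (0.091), and its 8 probe sets were all above 0, up to 0.29. EEF1D, an exchange factor subunit, was at −0.078. EEF1A1, the widely expressed delivery factor, was at 0.047 on its brightest probe set, the highest of 6 that reached down to −0.48. Of 11 other mRNAs known to carry a TOP motif, 1 was higher and 1 lower, with a median of 0.038. Among the initiation factors of this list, EIF4B was at 0.15 on its brightest of 5 probe sets, which ran from −0.040 to 0.20, and EIF3H at −0.14. EIF3L (0.099), EIF3E (0.084) and EIF3F (0.060) lay under 0.1.

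Of 14 genes of the mTORC1, LARP1 and S6 kinase group, 1 was higher and 1 lower by 0.1 or more, with a median of −0.0079. TSC2, which restrains mTORC1, had 168 in shNC and 195 in shRAP1 (0.22) on 1 probe set, and RHEB, the GTPase that activates mTORC1, had 3032 and 2807 (−0.11). EIF4EBP1, a repressor of cap-dependent initiation, was at −0.093. The cap-binding EIF4E was at −0.076, with 4 probe sets between −0.26 and −0.048. On their brightest probe sets LARP1 and MTOR were at −0.0070 and −0.0088, and the other probe set of MTOR was at −0.13. Of 10 chaperones and importers of ribosomal proteins, 1 was higher and 1 lower, with a median of 0.036. The importin TNPO1 was at 0.18 with 4 probe sets between −0.17 and 0.27, GRWD1, the chaperone of RPL3, at −0.13 and IPO7 at −0.071, while BCCIP was at 0.066, the highest of its 6 probe sets, which reached down to −0.36. This median was −0.074, of the opposite sign, with all probe sets of a gene combined.

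Mitochondrial ribosomal protein genes, which encode the other ribosome of the cell, were spread more widely. Of 74 measured, 5 were higher and 25 lower by 0.1 or more, against 26.6% and 21.1% of all genes, 44 lay within 0.1, the median was −0.034 and the SD 0.11. Their median of mean log2 signal was 10.2, against 13.9 for the cytosolic genes, so the groups differ in signal as well as in spread.

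**Figure D5:**
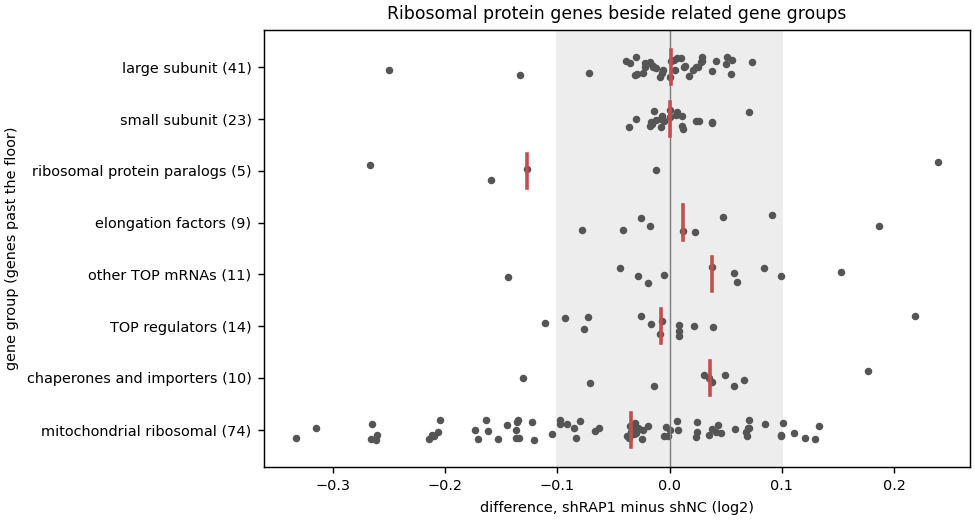
Difference of each gene, shRAP1 minus shNC on the log2 scale (horizontal axis), for the large and small subunit genes and 6 related groups (vertical axis, with the number of genes past the floor). Points are genes, red bars are group medians and the grey band marks differences under 0.1 in size. The subunit genes gather around 0, the 5 paralogs have a median of −0.13 and the 74 mitochondrial ribosomal protein genes reach −0.33.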

How the data were processed

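Total RNA of 2 HCT116 cultures was hybridised to 1 Affymetrix array each. The authors deposited 1 intensity per probe set and array, made with RMA per the submitters' processing notes. This method subtracts background, gives all arrays the same distribution of values and combines the probes of a set, so a change of total RNA per cell is not visible. The version of RMA is not given in the sources used here, nor is the set of arrays it was run on. The linear scale was read from the values, and log2 was taken with no pseudocount.

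Of 49293 probe sets that were not controls, those with 1 symbol in the platform annotation and a value of at least 78.0 (the median of all values, 6.29 on the log2 scale) on either array were kept. Each gene was its brightest such probe set by mean log2 value, which gave 10437 genes. An annotation that repeats the same symbol was treated as several symbols. Among genes under the symbol rule this left out a dim probe set of RPS26 and some of RPL37. Those of RPL37 past the floor had 1128 in shNC and 1288 in shRAP1 (0.19), and 1596 and 1661 (0.057). No test was run, and precision is limited by having 1 array per group. Genes named were the 12 members with the largest difference in size, the 3 brightest and 3 dimmest, those with the widest probe sets of both signs, stalk and 5S members, and up to 4 per list. RPS6, RPS16, RPS18, RPL13A, RPL4 and RPL39, the counterparts of paralogs, EIF3F, and the mitochondrial group were added after their values were seen. Some genes under the symbol rule are not reported here. Members and lists were chosen with earlier results of these data known. The computation was tested on simulated data. Python 3.11.15, numpy 2.4.6, pandas 2.3.3, statsmodels 0.14.6 and matplotlib 3.10.9 were used.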

Additional observations from a re-analysis of the deposited data

How the results depend on the processing

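Each value was recomputed under other settings. Replacing the brightest probe set by the next brightest was a choice made with the values known. Of 172 values, 156 stayed within 1 SD of the first value, or for counts within 1.5 times. That SD was taken between the genes of a list, and over all genes for lists of under 5. It is a wide yardstick for a median near 0, most of all for the stalk and 5S lists of 2 genes, so staying within it says little. With probe sets of several symbols, for example, the Diamond-Blackfan anaemia median went from −0.0067 to 0.0049 and still counted as staying. The stalk median (−0.019) was 0.013 by the median over probe sets and 0.039 with the next brightest probe set, and the 5S median (0.013) was −0.0042 and −0.022, so both changed sign. The median of the ribosomal protein genes ran from −0.0020 (the mean) to 0.014. The count of members higher by 0.1 or more (0) was 1 with a median over each gene's probe sets, 1 when _x_at and _s_at probe sets were left out, 3 with the next brightest probe set (47 members) and 6 at a size of 0.05. The count lower (2) was 4 with that median, 1 with a floor at percentile 75, 6 without _x_at and _s_at probe sets, and 0 at 1.2-fold and at 2-fold. For that median, the floor at percentile 75 and the next brightest probe set, shares over all genes were not counted. By the median over a gene's probe sets the tunnel list was at 0.023 and the chaperones and importers at −0.074. Without _x_at and _s_at probe sets the tunnel list was at 0.041, the head list at −0.051 and the elongation factors at 0.094, and TERF2IP had no value. With the next brightest probe set the chaperones and importers were at −0.10 and the paralog median was 0.066, of the opposite sign. That paralog median rests on RPL36AL (−0.11) and RPL7L1 (0.24) alone, each with the sign of its brightest probe set. The causes were not tested, though leaving out _x_at and _s_at probe sets left 30 of 64 members. No paired analysis was possible because each group holds 1 array. Signals next to the floor, such as that of RPL27A, limit what can be read from dim probe sets.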

Other observations

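Probe sets named for ribosomal protein pseudogenes passed the floor for 2 symbols. The 3 of RPL23AP82 and the dimmer of the 2 for RPS2P32 have names that end in _x_at or _s_at. Such probes can match other transcripts, so the source of this signal is not known. RPL23AP82 was lower in shRAP1 on all 3 probe sets, with 350 in shNC and 319 in shRAP1 (−0.13), 215 and 183 (−0.23), and 82.6 and 63.4 (−0.38), the last from a signal next to the floor. RPL23A itself was at 0.042. RPS2P32 had 191 and 196 on the brighter of its 2 probe sets, both at 0.040. Probe sets of members below the floor reached larger sizes, such as RPL37A at 0.47 (44.7 in shNC and 61.8 in shRAP1) and RPL31 at −0.31.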
